A study of Homo sapiens with 24 samples.

Results

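FOS, FOSB, FOSL1, FOSL2, JUN, JUNB, JUND, ATF3, EGR1 and MAFF are genes of the AP-1 transcription factor and of the immediate early response. They were chosen by name, and their Ensembl identifiers were found for 10 of 10 among the 39321 genes of the deposited count table. RNA-Seq was performed on 24 libraries of A498 and 786-O, established ccRCC (clear cell renal carcinoma) lines of human origin. Every culture was transfected at 20 nM, either with a non-targeting siRNA pool (Cnsi) or with a pool directed at PD-L1 (PD-L1si). A day later (24 hours) some cultures were given 50 ng/mL of IFNγ, the main cytokine of T cells and NK cells, and RNA was taken 24 hours after that. Each line therefore had 4 groups, Cnsi and PD-L1si without IFNγ and both siRNAs with it (Cnsi IFNγ, PD-L1si IFNγ), with 3 replicates per group, and controls too went through transfection with lipid reagent. The labels call the PD-L1 groups a knockout while the protocol describes a transient siRNA, and nothing says that replicates came from separate cultures, so the p-values measure the spread between these libraries, which may be technical. A498 and 786-O libraries were sequenced on different instruments, so that line and instrument cannot be told apart. The study's own sources differ on which line name belongs to which set of libraries, which was not settled here. The names below are those of the sample labels.

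AP-1 is a dimer of basic leucine zipper (bZIP) proteins, in which a JUN protein pairs with another JUN, with a FOS protein or with an ATF protein. Immediate early genes such as FOS and EGR1 are transcribed within minutes of a growth factor or stress signal through factors that are already in the cell, mainly downstream of MAP kinases, and their mRNAs are short-lived. The FOSL proteins follow more slowly and last longer, and AP-1 as a whole is known for driving genes of invasion, growth and inflammation in carcinoma cells. The single time point here is a day after the cytokine, and the first hours were not sampled.

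The library totals ran from 19256316 to 27907526 counts in A498 and from 26807875 to 30350461 in 786-O. CD274, which encodes PD-L1 and is the target of the siRNA, was lower with PD-L1si in A498, with log2 fold changes of -2.81 under IFNγ and -2.47 without it, and in 786-O, with -0.94 and -1.42. IRF1, a direct target of the IFNγ pathway, rose with IFNγ by 4.62 in Cnsi cells of A498 and by 4.77 in those of 786-O. In all libraries labelled 786-O, 1475 genes that had over 1000 counts in A498 are listed at 0, and these are treated as not measured there. None of the 10 genes is among them. Of 9 markers of kidney epithelial carcinoma, 9 had counts in A498 and 8 in 786-O, where PAX2 is listed at 0, and their summed level ran from 3977 to 6268 CPM (counts scaled to library size) over the 24 libraries. Much of this sum was VIM, at 3360 to 4201 CPM in A498 and 1601 to 2500 CPM in 786-O. PAX8 was at least 84.8 CPM in A498 and 214 CPM in 786-O. EPCAM was at most 4.87 and 0.67 CPM, NDUFA4L2 at most 3.76 and 0.35 CPM, and CA9 at most 2.43 and 31.8 CPM. The summed level of 7 leukocyte markers was at most 1.18 CPM, that of 3 endothelial markers at most 1.15 CPM and that of 4 stromal markers at most 3.58 CPM. In 786-O, CD8A, VWF, COL1A1, COL3A1 and DCN are also listed at 0, and whether they were measured there is not known. The stromal sum of 786-O rests on PDGFRA alone.

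Promoter sequences are shown for 5 of the genes because ATF3, MAFF and JUN had the largest changes with IFNγ in A498, JUND did not pass with IFNγ, and EGR1 went opposite ways in the libraries of the 2 lines. RefSeq promoters (GRCh38.p14, 250 bases before the transcription start) were found for 9 of the 10 genes, with 11 starts in all, and not for FOSL1. Capitals mark the cyclic AMP response element (CRE, TGACGTCA, a palindrome bound by ATF and JUN dimers) or the same 8 letters with 1 mismatch, and in EGR1 they also mark CArG boxes, which are bound by serum response factor. Both strands were searched. The stretches are written 5′ to 3′ on the gene's own strand.
ATF3, chr1:212565273-212565302, plus strand: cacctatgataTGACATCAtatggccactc
JUN, chr1:58784096-58784125, minus strand: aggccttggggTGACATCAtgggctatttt
MAFF, chr22:38201929-38201958, plus strand: ggccgggtcggTGACGTCAccgcatgactg
JUND, chr19:18281804-18281833, minus strand: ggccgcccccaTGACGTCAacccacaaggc
EGR1, chr5:138465330-138465416, plus strand: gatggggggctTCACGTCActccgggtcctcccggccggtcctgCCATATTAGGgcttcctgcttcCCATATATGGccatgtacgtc

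The full CRE stood in 2 of the 9 genes, JUND and MAFF, and in 1.65% of 35116 RefSeq promoters of the same length. With at most 1 mismatch, which includes the full element, it stood in 7 of 9 (ATF3, EGR1, FOSB, FOSL2, JUN, JUND and MAFF) and in 10.5% of all promoters. ATF3 and JUN hold the same variant, TGACATCA. Within the 250 bases searched, CArG boxes were found in EGR1 alone among the 9, at 2 places, and in 1.16% of all promoters. Bases farther upstream were not searched for any element, so a gene without a match here, FOS among them, may hold one there. EGR1 also held a GAS element (TTCNNNGAA, known from IFNγ-responsive promoters), which stood in 6.57% of all promoters, and the second start of MAFF held a kappaB site, which stood in 5.21%. No match was found in the 9 genes for the AP-1 element TGANTCA with C or G in the middle, which stood in 4.2% of all promoters, or for the EGR site GCGNGGGCG with G or T in the middle, which stood in 5.37%. A match is a match of letters, and binding was not measured here.

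To compare the genes with one another, levels were divided by the exon length of each gene (CPM per kilobase), which is the only scale here on which levels of different genes are set side by side. In Cnsi cells without IFNγ of both lines, 5 genes, the same in both, were above 10 CPM per kilobase and the other 5 below it. The high group held JUNB, FOSL1, FOSL2, JUND and JUN. In A498 they ran from 48.3 ± 2.54 CPM per kilobase for JUNB (SD, n = 3) to 30.9 ± 1.09 for JUN, and JUNB and FOSL1, which was at 46.6 ± 1.38, overlapped. In 786-O they ran from 44.1 ± 0.564 for FOSL2 to 23.5 ± 1.11 for FOSL1, with overlap between FOSL2 and JUNB and between JUND and FOSL1. The low group held ATF3, EGR1, MAFF, FOS and FOSB. ATF3 was at 4.82 ± 0.418 CPM per kilobase in A498 and at 3.20 ± 0.142 in 786-O, and EGR1 was at 2.41 ± 0.117 and 3.17 ± 0.478. FOS, the founding partner of JUN in AP-1, was at 0.233 ± 0.0400 in A498 and at 1.80 ± 0.147 in 786-O, and FOSB was lowest in both, at 0.0382 ± 0.0149 and 0.198 ± 0.0408. On this scale the FOS-family transcript of these cells was mostly FOSL1 and FOSL2 at this time point.

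**Figure D1:**
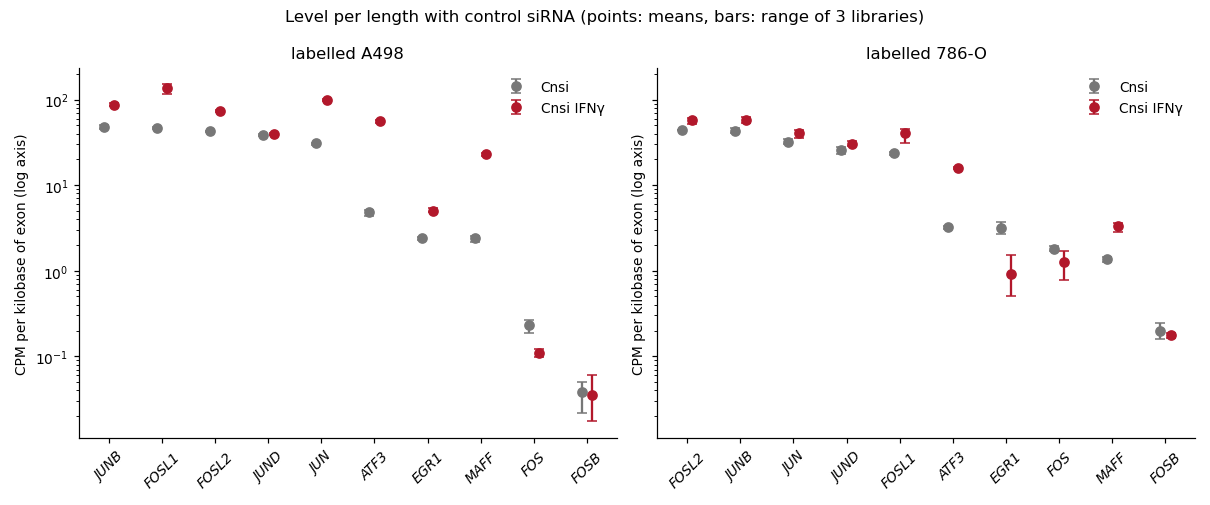
Level per length of the 10 genes in Cnsi cells, in CPM per kilobase of exon on a log axis, without IFNγ (grey) and with IFNγ (red), for the libraries labelled A498 (left) and 786-O (right). Points are means and bars the range of 3 libraries, and genes are ordered by their level without IFNγ: 5 genes stand above 10 CPM per kilobase in each line and FOSB is the lowest in both.

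With IFNγ, FOSL1 stood first in Cnsi cells of A498 at 136 ± 16.9 CPM per kilobase, followed by JUN at 100.0 ± 2.43 and JUNB at 87.4 ± 3.34, with no overlap between these neighbours. ATF3 reached 56.5 ± 2.68 and passed JUND, which stood at 39.6 ± 0.842. In 786-O the order began with JUNB at 57.8 ± 5.21 and FOSL2 at 57.1 ± 4.38, which overlapped, and ATF3 stayed below JUND, at 15.8 ± 0.438 against 30.2 ± 2.1. With the longest transcript in place of the exon length, ATF3 stood at 107 CPM per kilobase in A498, above JUNB at 87.4, and at 30.1 in 786-O, level with JUND at 30.2, so that the place of ATF3 depends on the length used. EGR1 fell from the seventh place to the ninth in 786-O, at 0.922 ± 0.524, where it overlapped with none but FOS.

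The first question was how these factors stood after IFNγ in cells that keep PD-L1. In Cnsi cells of A498, 7 of the 10 genes rose and FOS fell. Over all 20916 genes tested in A498, 18.2% rose and 18.5% fell, where a gene is counted as changed at an adjusted p under 0.05 when its log2 fold change was also above 0.5 or below -0.5 (edgeR's quasi-likelihood test, Benjamini-Hochberg adjustment over all genes). The median log2 fold change was 0.96 over the 10 genes and -0.03 over all genes tested. In Cnsi cells of 786-O, 3 genes rose and EGR1 fell, against 11.1% higher and 7.39% lower of 21209 genes.

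ATF3, a stress-induced bZIP factor that can pair with JUN proteins, had the largest rise of the 10 in both lines. Its level in the 3 Cnsi libraries of A498 was 17.4, 19.7 and 20.7 CPM and in the 3 Cnsi IFNγ libraries 214, 233 and 231 CPM. The ranges lay an order of magnitude apart, and the log2 fold change was 3.55 (SE 0.06, edgeR adjusted p = 4.6e-34). In 786-O it went from 12.9, 12.2 and 13.3 CPM to 61.9, 65.3 and 62.7 CPM, a log2 fold change of 2.30 (SE 0.06, edgeR adjusted p = 7.8e-21). The replicates lay close together in both lines and did not overlap between groups. Of all genes tested, 66% in A498 and 47.3% in 786-O had no overlap between these groups either.

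MAFF is a small MAF protein, a bZIP factor that lacks an activation domain and pairs with NFE2-type factors and BACH1. In A498 it stood at 12.3, 13.4 and 14.4 CPM without IFNγ and at 132, 122 and 132 CPM with it, and rose by 3.26 on the log2 scale (SE 0.06, edgeR adjusted p = 5.4e-33). In 786-O the levels were 7.71, 8.04 and 7.06 CPM without and 16.1, 20.4 and 19.3 CPM with IFNγ, a rise of 1.29 (SE 0.10, edgeR adjusted p = 2.7e-11). Both lines had higher values in every treated library, with a wider gap in A498.

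JUN itself, which pairs with JUN, FOS and ATF proteins in AP-1, was 107, 114 and 114 CPM in Cnsi cells of A498 and 362, 353 and 371 CPM with IFNγ. That is a log2 fold change of 1.70 (SE 0.04, edgeR adjusted p = 1.3e-28). In 786-O JUN stood at 111, 114 and 124 CPM without and 131, 162 and 152 CPM with IFNγ; the log2 fold change of 0.35 (SE 0.06) had an edgeR adjusted p of 0.00012 and did not reach the fold threshold. JUNB, a JUN protein with weaker transactivation, gave 0.86 (SE 0.05) in A498, where it rose, and 0.43 (SE 0.06) in 786-O, below the fold threshold. JUND, which is held at a steady level in most cells, did not pass in either line, with 0.05 (SE 0.05, edgeR adjusted p = 0.42) in A498 and 0.23 (SE 0.08, edgeR adjusted p = 0.028) in 786-O.

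Among the FOS proteins, FOSL1 (FRA-1), the member most tied to invasive carcinoma cells, rose in both lines. In A498 its levels were 86.2, 86.9 and 91.0 CPM without and 284, 222 and 265 CPM with IFNγ, and the log2 fold change was 1.55 (SE 0.08, edgeR adjusted p = 2.8e-11). In 786-O they were 44.8, 46.2 and 42.1 CPM without and 58.0, 86.7 and 86.3 CPM with IFNγ, giving 0.79 (SE 0.13, edgeR adjusted p = 0.00077). The first of these treated 786-O libraries lay well below the other 2 and still above every untreated one. FOSL2 (FRA-2), a long-lived relative, rose by 0.78 (SE 0.04) in A498 and differed by 0.37 (SE 0.05) in 786-O, under the fold threshold.

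FOS went the other way in A498, from 20, 21 and 15 counts to 8, 8 and 8 counts, with a log2 fold change of -1.11 (SE 0.34, edgeR adjusted p = 0.0051). These are the lowest counts of any gene of the set that passed, at 0.598 to 0.835 CPM without IFNγ and 0.310 to 0.385 CPM with it. In 786-O FOS was at 5.40, 5.54 and 6.28 CPM without and 2.51, 5.36 and 4.30 CPM with IFNγ, and the log2 fold change of -0.50 (SE 0.25, edgeR adjusted p = 0.15) did not pass, although it did with no filter on low counts (-0.53, edgeR adjusted p = 0.0025). FOSB, which had 2 to 9 counts per library in A498 and 22 to 42 in 786-O, passed in no comparison of either line. In A498 its standard error was 0.53 on the log2 scale for this comparison, so that a small change could not have been seen.

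EGR1 is a zinc finger factor and no AP-1 protein, but a standard immediate early readout of MAP kinase signals. It rose in A498 from 7.14, 7.83 and 7.69 CPM to 15.6, 15.1 and 16.8 CPM (log2 fold change 1.07, SE 0.08, edgeR adjusted p = 1.2e-13). In 786-O it fell, from 8.54, 9.79 and 11.5 CPM to 1.58, 4.74 and 2.36 CPM, and the log2 fold change was -1.78 (SE 0.42, edgeR adjusted p = 0.0089). The treated 786-O libraries differed among themselves by a wide margin but all lay below the untreated ones. Replicate 1 of 786-O had the lowest EGR1 and FOS level in all 4 groups. Without replicate 1 of all 4 groups, which was tried after the values were seen, the EGR1 change was -1.57 (SE 0.25, edgeR adjusted p = 0.0010).

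**Figure D2:**
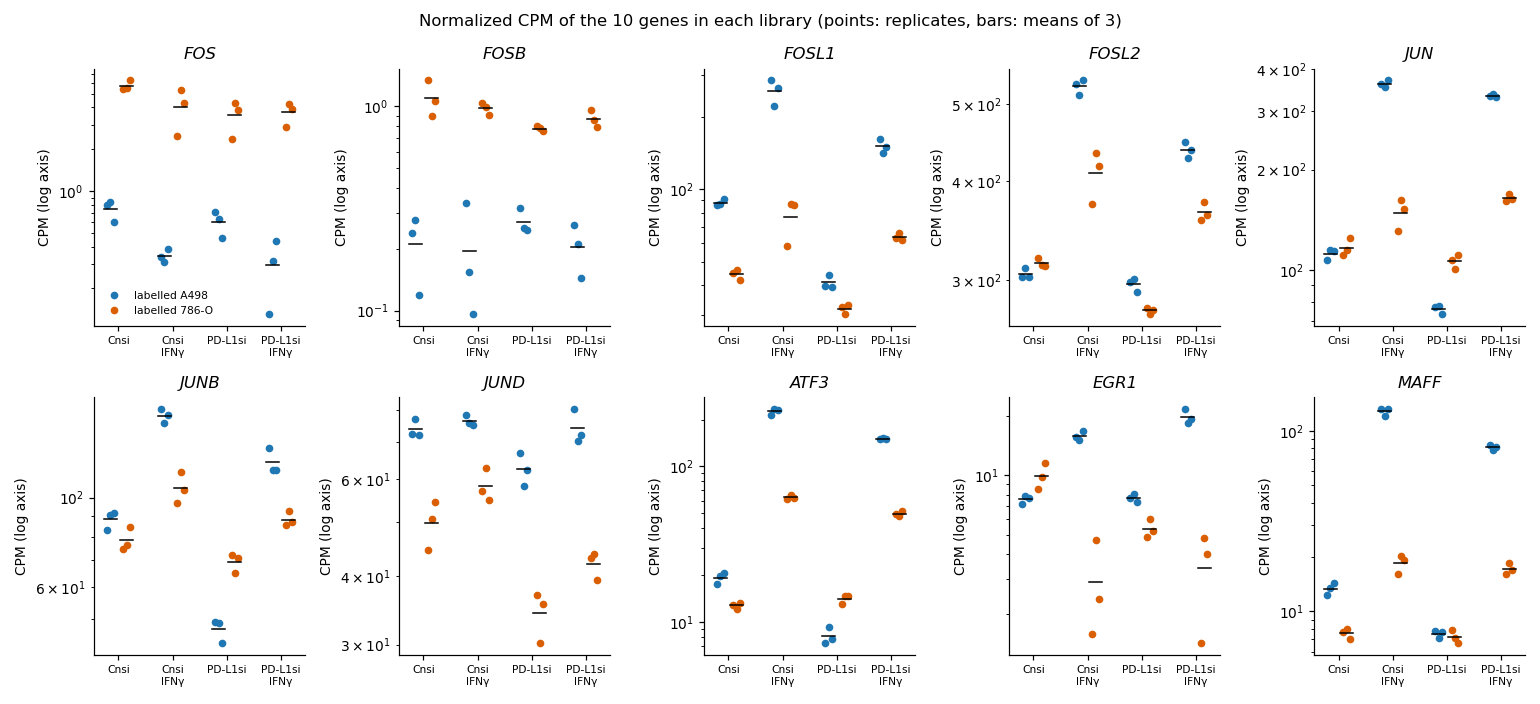
CPM of each of the 10 genes in every library, on a log axis, by siRNA and IFNγ group; blue points are libraries labelled A498, orange points those labelled 786-O, and bars are means of 3. ATF3 and MAFF stand higher in every IFNγ library of both lines, while EGR1 is higher with IFNγ in A498 (15.1 to 16.8 against 7.14 to 7.83 CPM in Cnsi cells) and lower in 786-O (1.58 to 4.74 against 8.54 to 11.5 CPM).

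The next comparison was the same cytokine in cells given PD-L1si, whose 6 libraries per line are separate from those of the comparison in Cnsi cells. In A498 the same 7 genes rose and FOS fell, against 17.6% higher and 15.9% lower over all genes. ATF3 went from 7.33, 9.22 and 7.80 CPM to 151, 152 and 150 CPM, a log2 fold change of 4.22 (SE 0.07, edgeR adjusted p = 1.2e-34), and MAFF from 7.82, 7.12 and 7.69 to 83.3, 78.7 and 81.5 CPM, a change of 3.42 (SE 0.06). JUN rose by 2.13 (SE 0.04), FOSL1 by 1.89 (SE 0.08), JUNB by 1.38 (SE 0.05), EGR1 by 1.38 (SE 0.08) and FOSL2 by 0.56 (SE 0.04). FOS fell by 1.04 on the log2 scale (log2 fold change -1.04, SE 0.38, edgeR adjusted p = 0.019), from 20, 15 and 13 counts to 3, 6 and 9. That call rested on the libraries of replicate 1: the edgeR adjusted p was 0.080 without PD-L1si replicate 1 and 0.17 without PD-L1si IFNγ replicate 1, and DESeq2 gave 0.065.

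In PD-L1si cells of 786-O, ATF3, MAFF, FOSL1 and JUN rose and none of the 10 genes fell, against 11% higher and 7.45% lower over all genes. ATF3 stood at 13.1, 14.6 and 14.6 CPM without and 49.5, 47.9 and 51.5 CPM with IFNγ (log2 fold change 1.81, SE 0.06, edgeR adjusted p = 1.4e-18). The other 3 rose by 1.25 (SE 0.10) for MAFF, 0.99 (SE 0.14) for FOSL1 and 0.63 (SE 0.06) for JUN. EGR1 was at 4.86, 5.99 and 5.25 CPM without and 1.42, 4.83 and 4.00 CPM with IFNγ. The groups did not overlap, by a narrow margin, as was so for 49.9% of all genes tested in 786-O. The log2 fold change of -0.64 (SE 0.43, edgeR adjusted p = 0.30) did not pass.

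**Figure D3:**
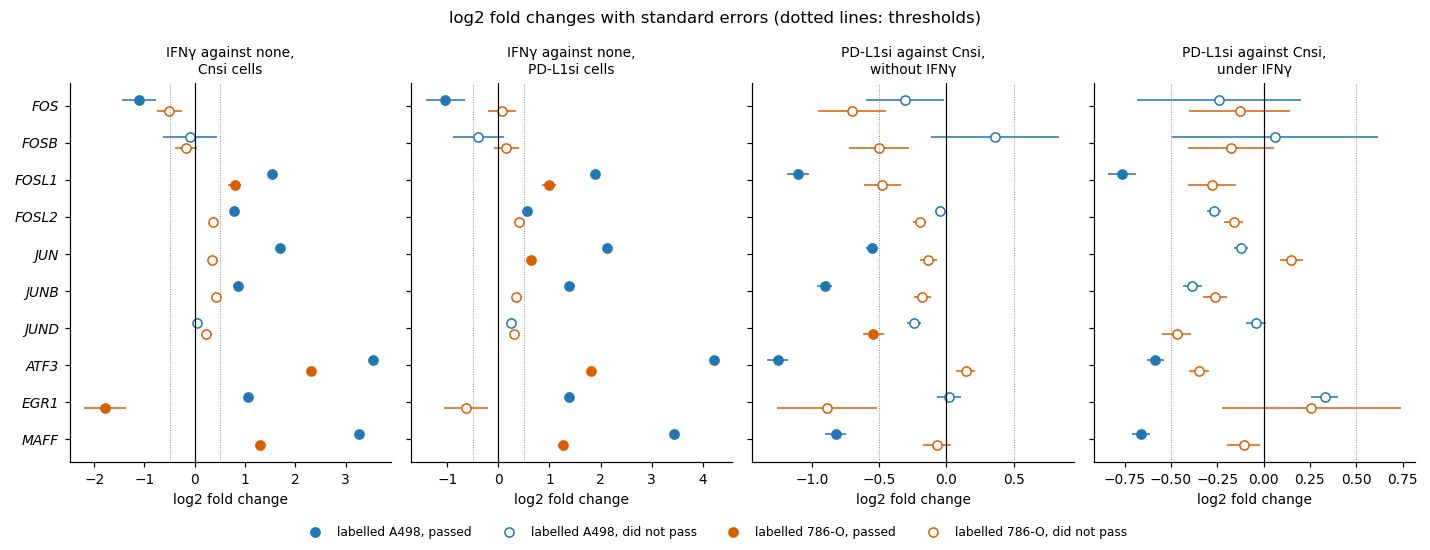
log2 fold changes (points) with standard errors (bars) of the 10 genes in 4 comparisons, for libraries labelled A498 (blue) and 786-O (orange). Filled points passed the adjusted p and the fold threshold, open points did not, and dotted lines mark a log2 fold change of 0.5 in either direction; the horizontal scale differs between panels: with IFNγ most A498 points lie to the right of those of 786-O, and with PD-L1si the filled points all lie left of zero.

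The study asked what PD-L1 silencing did to the IFNγ response and compared PD-L1si IFNγ with Cnsi IFNγ cells. That comparison gives levels under IFNγ, and the change of the response itself is the interaction given below. The paper also reports that ATF3 appears to need PD-L1 for its regulation by IFNγ in A498, and its discussion calls PD-L1 necessary. It reached this by taking away the transcripts that IFNγ regulated both with and without PD-L1. That is another measure than the fold changes given here. In PD-L1si cells, where CD274 was lowered and not absent, ATF3 rose with IFNγ by 4.22 in A498 and by 1.81 in 786-O. CD274 itself rose with IFNγ in PD-L1si cells, by 4.92 in A498 and by 4.36 in 786-O. Its mean with PD-L1si IFNγ was 27.7 CPM in A498 and 31.4 CPM in 786-O. Both means lay above those of Cnsi cells without IFNγ, at 5.07 and 4.08 CPM. In A498 FOSL1, MAFF and ATF3 were lower with PD-L1si and none of the 10 was higher, against 4.36% higher and 5.75% lower over all genes. FOSL1 was at 162, 142 and 150 CPM with PD-L1si IFNγ against the 222 to 284 CPM of Cnsi IFNγ given above (log2 fold change -0.76, SE 0.07, edgeR adjusted p = 6.4e-07). MAFF gave -0.66 (SE 0.05, edgeR adjusted p = 7.8e-14) and ATF3 -0.58 (SE 0.05, edgeR adjusted p = 2.4e-12), with no overlap of the libraries in either. Of all genes tested in A498, 41.6% had no overlap in this comparison. JUNB (-0.38), FOSL2 (-0.27), JUN (-0.12) and EGR1 (0.33, the only positive one) had edgeR adjusted p-values of 1.4e-07, 4.8e-07, 0.014 and 0.00045 and did not reach the fold threshold.

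Without IFNγ, 5 of the 10 genes fell with PD-L1si in A498. This comparison shares the Cnsi and PD-L1si libraries with the IFNγ comparisons above. They were ATF3, FOSL1, JUNB, MAFF and JUN, against 2.87% higher and 5.6% lower over all genes. ATF3 was at 7.33 to 9.22 CPM against 17.4 to 20.7 in Cnsi cells (log2 fold change -1.26, SE 0.08, edgeR adjusted p = 3.2e-15), and FOSL1 at 39.7, 44.1 and 39.4 CPM against 86.2 to 91.0 (-1.10, SE 0.08, edgeR adjusted p = 3.4e-08). JUNB fell from 83.0, 90.7 and 91.3 CPM to 49.1, 48.7 and 43.5 CPM (-0.91, SE 0.05). MAFF gave -0.82 (SE 0.08) and JUN -0.55 (SE 0.04). EGR1, at 7.68, 8.04 and 7.30 CPM with PD-L1si, overlapped with its Cnsi level.

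The difference between these effects, tested as the interaction of siRNA and IFNγ, was positive for ATF3 (0.67, SE 0.09, edgeR adjusted p = 3.3e-06) and JUNB (0.52, SE 0.07, edgeR adjusted p = 6.0e-06) in A498, meaning a larger IFNγ effect on the log2 scale in PD-L1si cells. Over all genes of A498, 1.81% had a higher and 0.645% a lower IFNγ effect with PD-L1si. ATF3 started from 8.12 ± 0.987 CPM in PD-L1si cells and 19.3 ± 1.67 CPM in Cnsi cells (SD, n = 3) and ended at 151 ± 1.15 and 226 ± 10.7 CPM, so that its level stayed lower with PD-L1si in both conditions. JUNB lost this call in 4 of the 12 fits that left out 1 library (Cnsi replicate 3, Cnsi IFNγ replicate 2, PD-L1si replicate 3 and PD-L1si IFNγ replicate 1), where its value was 0.50, 0.49, 0.45 and 0.44. JUN, at 0.43 (SE 0.06), and FOSL2, at -0.22 (SE 0.05), had edgeR adjusted p-values of 1.8e-06 and 0.0051 and did not reach the fold threshold.

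In 786-O under IFNγ, none of the 10 genes passed with PD-L1si, against 1.29% higher and 1.74% lower over all genes. ATF3 (-0.35, SE 0.05), JUNB (-0.26, SE 0.06), JUND (-0.47, SE 0.08) and FOSL2 (-0.16, SE 0.05) had an edgeR adjusted p under 0.05 with a change under the fold threshold, and DESeq2 also called none at that threshold, while 5 had an unadjusted p under 0.05. FOSL1 was at 62.7, 65.7 and 61.7 CPM against 58.0, 86.7 and 86.3 CPM in Cnsi IFNγ cells, so that 1 Cnsi IFNγ library lay below all 3 (log2 fold change -0.28, SE 0.13, edgeR adjusted p = 0.21). Without IFNγ, JUND was lower with PD-L1si, at 36.9, 30.2 and 35.5 CPM against 44.5, 50.7 and 54.4 CPM (-0.54, SE 0.08, edgeR adjusted p = 0.0001), and over all genes 1.19% were higher and 1.63% lower. The JUND value was -0.48 without Cnsi replicate 3 and -0.46 without PD-L1si replicate 2, under the fold threshold in both. In this comparison 9 of the 10 genes had an unadjusted edgeR p under 0.05, of which ATF3 alone (0.14) was positive. FOSL2 (-0.20, SE 0.05, edgeR adjusted p = 0.0068) did not reach the fold threshold. FOSL1 (-0.48, SE 0.14, edgeR adjusted p = 0.050), EGR1 (-0.89, SE 0.37, edgeR adjusted p = 0.19) and FOS (-0.70, SE 0.25, edgeR adjusted p = 0.10) did not pass. With only the groups compared in the fit, EGR1 (-0.87, edgeR adjusted p = 2.4e-05) and FOS (-0.69, edgeR adjusted p = 0.0098) did. No gene of the 10 passed for the interaction in 786-O by edgeR or DESeq2, although 2 had an unadjusted p under 0.05, and there 0.0377% of all genes were higher and 0.0613% lower. ATF3, at -0.49 (SE 0.09, edgeR adjusted p = 0.0091), lay just short of the fold threshold, and EGR1 was at 1.15 (SE 0.61, edgeR adjusted p = 0.69).

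Whether the lines differed was tested in 1 model of all 24 libraries, as the effect in 786-O minus that in A498. For IFNγ in Cnsi cells, EGR1 (-2.85, SE 0.39, edgeR adjusted p = 7.8e-06), MAFF (-1.98, SE 0.11), JUN (-1.35, SE 0.08), ATF3 (-1.25, SE 0.09) and FOSL1 (-0.76, SE 0.16, edgeR adjusted p = 0.00091) had a lower effect in 786-O and none had a higher one, against 15.1% higher and 13.2% lower of 17999 genes tested in both lines. In PD-L1si cells the same 5 genes and JUNB had a lower IFNγ effect in 786-O, against 13.1% higher and 12.8% lower over all genes. The values were -2.41 (SE 0.09) for ATF3, -2.17 (SE 0.12) for MAFF, -2.01 (SE 0.39) for EGR1, -1.49 (SE 0.08) for JUN, -1.03 (SE 0.09) for JUNB and -0.90 (SE 0.17) for FOSL1. FOS, FOSB, FOSL2 and JUND did not pass in either. FOSL2 (-0.42 in Cnsi and -0.15 in PD-L1si cells) had an edgeR adjusted p under 0.05 in both but did not reach the fold threshold. IRF1, set beside them as a direct IFNγ target, had a difference of 0.14 (SE 0.06, edgeR adjusted p = 0.069) in Cnsi cells and of -0.53 (SE 0.07) in PD-L1si cells.

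The PD-L1si effect without IFNγ was higher in 786-O than in A498 for ATF3 (1.40, SE 0.11, edgeR adjusted p = 3.8e-13) and MAFF (0.76, SE 0.13). The same held for JUNB (0.73, SE 0.09) and FOSL1 (0.63, SE 0.18, edgeR adjusted p = 0.024), against 3.23% higher and 1.25% lower over all genes. Within 786-O the ATF3 effect was 0.14 (SE 0.07, edgeR adjusted p = 0.19) and did not pass. The FOSL1 difference did not pass in 6 of the fits that left out 1 library, with edgeR adjusted p-values from 0.052 to 0.061. Under IFNγ MAFF alone passed (0.57, SE 0.10, edgeR adjusted p = 2.7e-05), against 2.96% higher and 2.64% lower, and its difference was 0.47 without Cnsi IFNγ replicate 1 of 786-O. CD274 itself was lowered less in 786-O, by 1.87 (SE 0.09) under IFNγ and 1.06 (SE 0.24) without it, and the part of this in the differences above was not tested.

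Genes of the same circuits were taken from 5 lists compiled by hand. For comparison, with IFNγ in Cnsi cells 18.2% of all genes rose and 18.5% fell in A498, and 11.1% and 7.39% in 786-O. With PD-L1si under IFNγ 4.36% were higher and 5.75% lower in A498, and 1.29% and 1.74% in 786-O. Without IFNγ these shares were 2.87% and 5.6% in A498, and 1.19% and 1.63% in 786-O. Among 16 other bZIP partners, 14 were tested, and 11 rose with IFNγ in Cnsi cells of A498 and 5 in 786-O, with none lower. The median log2 fold change of the list was 0.86 in A498 and 0.26 in 786-O, against -0.03 and 0.00 over all genes. BATF2, an interferon-induced partner of JUN proteins, rose by 8.03 (SE 0.12) in A498 and by 7.19 (SE 0.09) in 786-O, the largest of the list in both. BATF3 (2.93 and 1.05), BACH1 (2.24 and 0.83), JDP2 (0.89 and 1.37) and DDIT3 (2.03 and 0.63) rose in both lines. BACH1 is a repressor that pairs with small MAF proteins, and JDP2 and DDIT3 act as repressors or dominant partners. With PD-L1si under IFNγ, 3 fell in A498, from BATF3 (-1.18) to NFE2L1 (-0.66), and DDIT3 (-0.64) fell in 786-O, and without IFNγ 5 fell in A498, the lowest being BATF3 at -1.86, and none passed in 786-O.

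Among 22 other immediate early genes, 20 were tested in A498 and 16 in 786-O, where KLF2, NR4A2, MYC and CCN1 are listed at 0. With IFNγ in Cnsi cells 15 rose and 1 fell in A498, and 5 rose and 3 fell in 786-O. KLF4, a zinc finger factor of growth arrest, rose most in both, by 3.83 (SE 0.06) and 1.93 (SE 0.07). KLF6 (1.24 and 0.67), ZFP36 (1.24 and 0.67), IER2 (0.83 and 0.63) and GADD45B (0.61 and 1.26) also rose in both, and BTG2, an antiproliferative gene, fell in both (-0.51 and -0.67). The EGR1 relatives EGR3 (-2.47, SE 0.79, edgeR adjusted p = 0.014) and EGR2 (-0.97, SE 0.31, edgeR adjusted p = 0.013) fell in 786-O, and EGR2 rose in A498 (0.77, SE 0.24, edgeR adjusted p = 0.0051); EGR2 was taken up here after its values were seen. With PD-L1si, 6 genes of this list fell under IFNγ in A498, the lowest being GADD45B at -0.89, and 8 fell without IFNγ, the lowest being PPP1R15A at -1.24, while SGK1 rose by 0.98. None passed in 786-O with PD-L1si.

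Of the kinases and factors upstream, 17 were tested in A498 and 10 in 786-O, and 3 and 2 rose with IFNγ in Cnsi cells, in A498 a share near the 18.2% of all genes. ELK4, a partner of serum response factor, rose by 1.09 and 0.80, and RPS6KA1, a kinase downstream of ERK, by 0.51 and 0.51. The feedback inhibitors of MAP kinases, phosphatases of the DUSP family and SPRY proteins, had 13 genes tested in each line, of which 6 rose in A498, and 3 rose and 1 fell in 786-O. The 1 fall was near the 7.39% of all genes that fell in 786-O. SPRY4 rose most in A498 (3.58, SE 0.36) and is listed at 0 in 786-O. DUSP4 (1.92 and 1.10) and DUSP6 (1.03 and 0.72) rose in both lines, and DUSP8 (-1.12) fell in 786-O. With PD-L1si under IFNγ 2 of the list rose and 2 fell in A498, from SPRY2 at 0.81 to SPRY4 at -0.98, and 1 fell in 786-O. DUSP1, the phosphatase of JNK and p38, fell in both lines, by 0.51 in A498 and by 0.57 in 786-O (log2 fold changes of -0.51 and -0.57).

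Genes known from the literature as AP-1 targets moved in both directions with IFNγ, and the falls were near the share of all genes that fell. That share was 18.5% in A498 and 7.39% in 786-O, and 18.2% and 11.1% rose. In Cnsi cells of A498, 8 rose and 5 fell of 24 tested, from IL6, an inflammatory cytokine, at 2.76 (SE 0.06) to MMP13, a collagenase, at -3.01 (SE 0.36). In 786-O 4 rose and 2 fell of 21, from IL6 at 2.97 (SE 0.18) to AREG, an EGF receptor ligand, at -0.67 (SE 0.20). PLAUR, the urokinase receptor, rose in both (0.92 and 0.90), and HMOX1, a heme-degrading enzyme, fell in both (-0.77 and -0.60). With PD-L1si in A498, 10 fell and none rose under IFNγ, with IL6 lowest at -1.48 (SE 0.05), and 9 fell and none rose without IFNγ, with IL6 at -2.42 (SE 0.11). The list's median was -0.52 under IFNγ and -0.43 without it, against 0.01 and 0.00 over all genes. In 786-O 1 rose and 1 fell under IFNγ, HMOX1 at 0.93 and ITGA2 at -0.59, and 2 rose and 1 fell without it, from HMOX1 at 1.02 to AREG at -0.72.

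**Figure D4:**
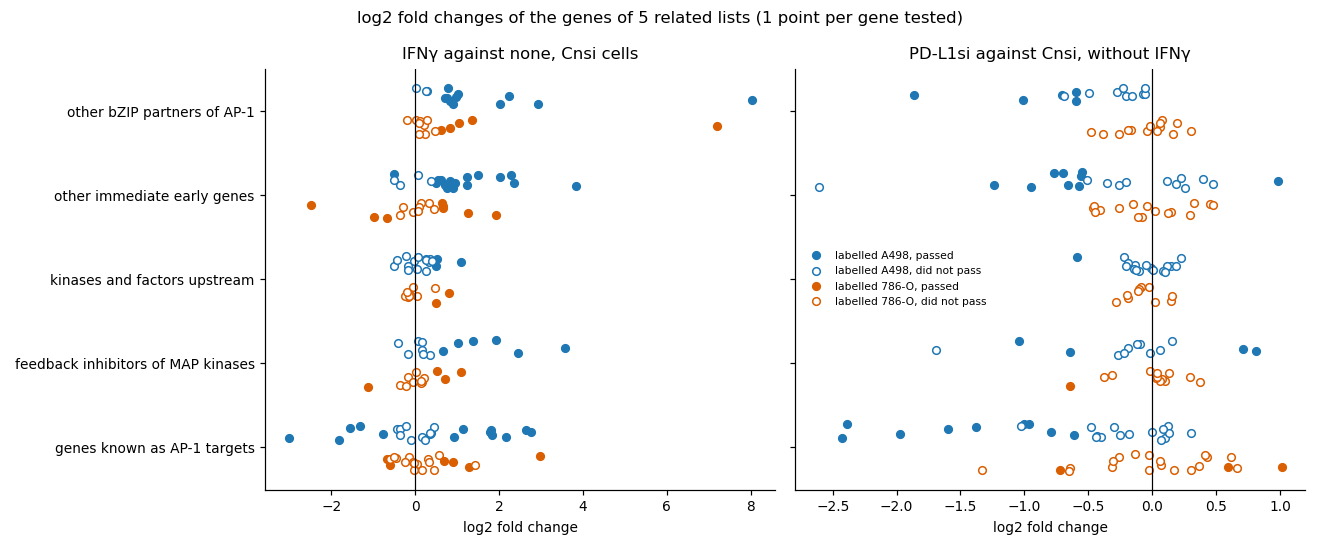
log2 fold changes of the genes of 5 related lists, 1 point per gene tested, for IFNγ in Cnsi cells (left) and PD-L1si without IFNγ (right); blue points are libraries labelled A498, orange those labelled 786-O, and filled points passed the test. The far right points on the left are BATF2 (8.03 and 7.19), and on the right the filled A498 points lie mostly below zero.

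The genes whose levels ran most like 3 of the factors over the 12 libraries of a line were found by Pearson's r of log2(CPM + 1), as a description across groups that IFNγ separates. In A498, CTSB, NFKB2 and CDK18 were closest to FOSL1 (r of 0.997, 0.997 and 0.996), TRIM14, SQSTM1 and MOCOS to ATF3 (all r of 0.999), and MAP3K14, CDC25B and MKNK2 to EGR1 (all r of 0.994). In 786-O, CARD19, MDGA1 and QSOX2 were closest to FOSL1 (r of 0.992, 0.992 and 0.991), CD47, CCL2 and TNFSF10 to ATF3 (0.998, 0.998 and 0.996), and SLC12A2, PDE4A and AFTPH to EGR1 (0.956, 0.953 and 0.950). No gene was named for the same factor in both lines. Among the factors themselves, FOS and EGR1 had r of -0.86 in A498 and 0.74 in 786-O.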

How the data were processed

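Poly(A) RNA was sequenced in 24 libraries (stranded, paired ends). The authors trimmed reads with Trimmomatic 0.36.6, aligned them to GRCh38 with HISAT2 2.1.0 and counted them per GENCODE gene with featureCounts 1.6.3, and the deposited values are these raw counts, without normalization or filter. Gene names, lengths and positions came from a later GENCODE release (39148 of 39321 genes matched by identifier). Groups were taken from the sample labels.

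Genes with at least 10 counts summed over the 3 libraries of a group were fitted with edgeR 4.0.16 in R 4.3.3 (TMM scaling, quasi-likelihood F-test, robust estimation, 1 mean per group), over the 12 libraries of a line or, for differences between lines, over all 24, with Benjamini-Hochberg adjustment over all genes tested. A gene was called at an adjusted p under 0.05 and a log2 fold change over 0.5. The standard error (SE) is the fold change divided by the square root of F. CPM values are TMM-scaled. The fit was tested on data simulated for PD-L1si under IFNγ, with a 2-fold change in 200 genes drawn from all genes kept. Of these, 153 were recovered in A498 and 132 in 786-O, so a change of that size can be missed. Among unchanged genes 4 and 6 were called. A change in PD-L1si cells cannot be told apart from an off-target effect of the siRNA pool.

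The 10 genes, the lists and the tests were chosen with earlier results of these data known. Genes of a list were named when called the same way in both lines, or when highest or lowest among those called in a line. For FOSL1, ATF3 and EGR1 the 3 genes of highest r among genes with a mean of at least 1 CPM were named. Alternatives were DESeq2 1.42.0, relative log expression scaling, other filters, protein-coding genes, other thresholds, the newer edgeR fit, no robust estimation, the groups compared alone, the replicate number as a block, the longest transcript as length, and each library left out. The omission of replicate 1 from all 786-O groups and the restriction to genes with counts in both lines were added after seeing the data.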

Additional observations from a re-analysis of the deposited data

Results flagged for a closer look

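A difference of the IFNγ effect between siRNAs was tested directly as an interaction in A498 and passed for ATF3 (0.67, SE 0.09) and JUNB (0.52, SE 0.07). The other results taken up here are differences of the same effect between the lines, each tested in the model of all 24 libraries as 786-O minus A498 on the log2 scale (edgeR, adjusted p under 0.05). For IFNγ in Cnsi cells these were EGR1 (-2.85), MAFF (-1.98), JUN (-1.35), ATF3 (-1.25) and FOSL1 (-0.76). For IFNγ in PD-L1si cells they were ATF3 (-2.41), MAFF (-2.17), EGR1 (-2.01), JUN (-1.49), JUNB (-1.03) and FOSL1 (-0.90). For PD-L1si without IFNγ they were ATF3 (1.40), MAFF (0.76), JUNB (0.73) and FOSL1 (0.63), and for PD-L1si under IFNγ MAFF (0.57). EGR1 with IFNγ in Cnsi cells is the one gene of the 10 that passed in both lines with opposite signs. Line and sequencing instrument cannot be told apart in these differences.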

How the results depend on the processing

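The counts of the 10 genes called were within 1.5 times the reported ones in 342 of 385 recomputations. With the adjusted p alone the counts called rose from 3 to 7 (PD-L1si under IFNγ, A498), 2 to 4 (interaction, A498), 4 to 8 and 4 to 7 (IFNγ in Cnsi and in PD-L1si cells, 786-O), 0 to 4, 1 to 2 and 0 to 1 (PD-L1si under IFNγ, PD-L1si without IFNγ and interaction, 786-O) and 1 to 5 (difference between lines, PD-L1si under IFNγ). With a log2 fold change over 1 they fell to 0, 2 and 0 (PD-L1si under and without IFNγ and interaction, A498), 2 and 0 (IFNγ in PD-L1si cells and PD-L1si without IFNγ, 786-O) and 0 and 1 (differences between lines, PD-L1si under and without IFNγ). For PD-L1si without IFNγ in 786-O, 1 became 2 with no filter and 3 with no robust estimation, with only the groups compared and without replicate 1 of all groups. For the interaction in 786-O, 0 became 1 with filterByExpr, with protein-coding genes only and without replicate 1 of all groups, in each case ATF3, and for PD-L1si under IFNγ in 786-O 0 became 1 without replicate 1 of all groups. The causes were not tested. Leaving out 1 library gave 1 to 2 genes (interaction, A498), 0 to 1 (PD-L1si under IFNγ, 786-O), 0 to 2 (PD-L1si without IFNγ, 786-O), 0 to 1 (interaction, 786-O) and 0 to 2 (difference between lines, PD-L1si under IFNγ).

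The replicate numbers are shared by the groups, but same-numbered libraries deviated together with a mean r of only 0.037 in A498 and 0.042 in 786-O (lowest -0.081 and -0.22), and 6 of 12 libraries in each line were closest to their own number, so the pairing was not used. With the replicate block, PD-L1si without IFNγ in 786-O had 2 genes called in place of 1, the added one being FOS (-0.74, edgeR adjusted p = 0.0010), FOS also passed for IFNγ in Cnsi cells of 786-O (-0.54, edgeR adjusted p = 0.0046), and the other counts stayed within 1.5 times.

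Of 81 fold changes of the 10 genes with an adjusted p under 0.05, 0 changed sign under any alternative. Of the 59 with a higher adjusted p, 18 changed sign in 1 or more, 0.30 being the largest of these in size on the log2 scale, and no direction is given for those. Low counts limit FOS and FOSB in A498.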
